A study of Mus musculus with 30 samples.

Results

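The 7 genes described here are Lrp1, Lrp8, Vldlr, Ager, Picalm, App and Alpl, which encode receptors, an adaptor, a precursor protein and a surface enzyme of lipoprotein and amyloid handling. They were chosen by name and matched by Ensembl identifier in the read counts of all 30 libraries, which list 48795 genes. All 7 members passed the filter on low counts, as did 16844 genes in all. Primary brain endothelial cells of wild-type (WT) mice without treatment were sequenced, and the study asked how their expression changes with age after correction for sex. There were 5 ages, 2, 6, 12, 18 and 24 months, with 3 male and 3 female libraries at each (n = 6 per age). The strain, the way the cells were isolated and whether a library holds 1 mouse or a pool are not given in the sources used here, so a p-value measures the spread between these libraries.

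Members of the low-density lipoprotein (LDL) receptor family bind lipoproteins and other ligands outside the cell and carry them inward, and some of them pass on the Reelin signal. At the vessel wall LRP1 and RAGE, the product of Ager, are known as receptors that carry amyloid-beta in opposite directions across brain endothelium, and the clathrin adaptor PICALM takes part in the uptake and sorting of LRP1. Amyloid-beta is cut from the amyloid precursor protein, and tissue-nonspecific alkaline phosphatase, the product of Alpl, sits on the surface of brain capillary endothelium and removes phosphate from small molecules and proteins.

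Alpl, and no other member, passed the test for a slope on age. It stood at 597 ± 119 CPM (gene counts scaled to a common library size; mean ± SD, n = 6) at 2 months and 1115 ± 221 at 6 months. At 12 months it was at 1097 ± 212, at 18 months at 859 ± 138 and at 24 months at 1319 ± 210 CPM. Without the 2-month libraries the Alpl slope did not pass, and a departure from a straight line was called. Picalm was high at 18 months alone, at 116 ± 23.3 CPM against means of 73.7 to 81.0 CPM at the other ages. The Lrp8 libraries divided by sex in opposite directions at 6 and 18 months, by a test added after the values were seen. The share of counts in genes with more exon bases than the median divided by sex at these ages too. With that share in the model the 6-month difference did not pass and the 18-month difference did. Sex and such library properties cannot be told apart. Lrp1, App, Vldlr and Ager passed the slope test in no direction, and Ager was the lowest in CPM, at 0.086 to 2.34.

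**Figure D1:**
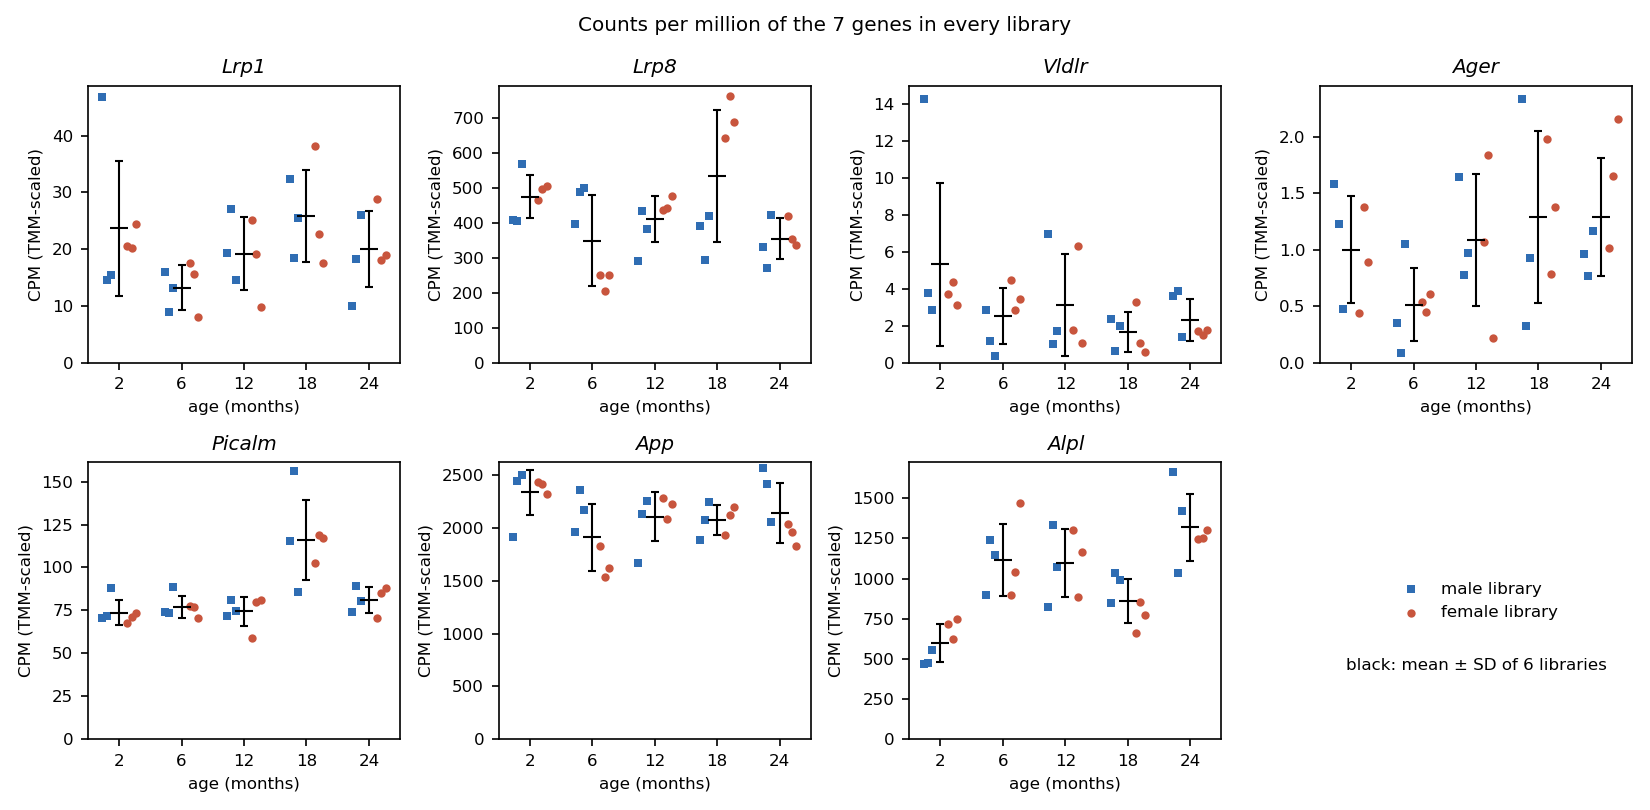
Level of each gene (CPM on TMM-scaled library sizes, linear axis from 0) in every library against age in months, with squares for male and circles for female libraries and the mean ± SD of 6 libraries in black. The 2-month Alpl libraries (468 to 745 CPM) lie below every 6-, 12- and 24-month library, and the 18-month Picalm libraries (85.9 to 156 CPM) lie above every 12-month library.

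Counts in genes ranged from 24140980 to 50464366 per library, so that a count of 0 would allow up to 0.0594 to 0.124 CPM (3 counts; counting error only, since the kit adds no molecular identifiers). The 10 endothelial markers, led by Slc2a1 and Cldn5, were present in all libraries and summed to 16140 to 21953 CPM. Markers of other cells were present too: 10 pericyte markers summed to 380 to 1214 CPM, 9 astrocyte markers to 213 to 1326 CPM and 6 choroid plexus markers to 159 to 6981 CPM, and none of these 25 genes was at 0 in any library. Of the 9 neuron markers 7 were at 0 in some libraries, and the sum reached 3.29 to 21.1 CPM. By the slope test described below, 4 pericyte, 1 smooth muscle (Des) and 1 endothelial marker (Erg) rose, and 3 astrocyte, 4 choroid plexus and 1 endothelial marker (Cldn5) fell. None of the tested neuron, microglia, oligodendrocyte, oligodendrocyte precursor, fibroblast and border macrophage markers passed. The libraries stood apart in 3 ways. The first male replicate at 2 months had the highest astrocyte sum (1326 CPM) and microglia sum (1143 CPM), and the first male replicate at 12 months the highest choroid plexus sum (6981 CPM). The share of reads outside genes was 10.3% ± 2.13 (SD) at 18 months, against means of 5.06 to 7.19% at the other ages. The percentage of gene counts that fell in genes with more exon bases than the median, called the long-gene share below, was 44.2 to 47.6% in the 3 female 6-month libraries and 58.7 to 61.1% in the 3 female 18-month libraries.

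Per kilobase of exon, which allows levels to be compared between genes, Alpl was the highest member at 247 ± 75.6 CPM per kb (SD over 30 libraries), followed by App at 163 ± 20.5. Lrp8 came next at 40.4 ± 12.2 CPM per kb, then Picalm at 5.37 ± 1.27 and Lrp1 at 1.15 ± 0.481. The lowest were Ager at 0.483 ± 0.275 and Vldlr at 0.297 ± 0.265 CPM per kb. App exceeded Lrp8, Lrp8 exceeded Picalm, Picalm exceeded Lrp1 and Lrp1 exceeded Ager in 30 of 30 libraries. Alpl exceeded App in 25 of 30 libraries, and the libraries with App higher were all of 2 months. At that age App was at 180 ± 16.7 and Alpl at 148 ± 29.6 CPM per kb (SD, n = 6). At the other ages the Alpl means were 213 to 327 and the App means 147 to 165 CPM per kb. Ager exceeded Vldlr in 21 of 30 libraries, so that pair overlapped within its spread. On the same per-kb scale the RAP chaperone gene Lrpap1 had 73.1 and the efflux pump gene Abcb1a had 144. Lrp2, the large receptor megalin, was not tested, at a mean of 0.0508 CPM over the libraries.

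**Figure D2:**
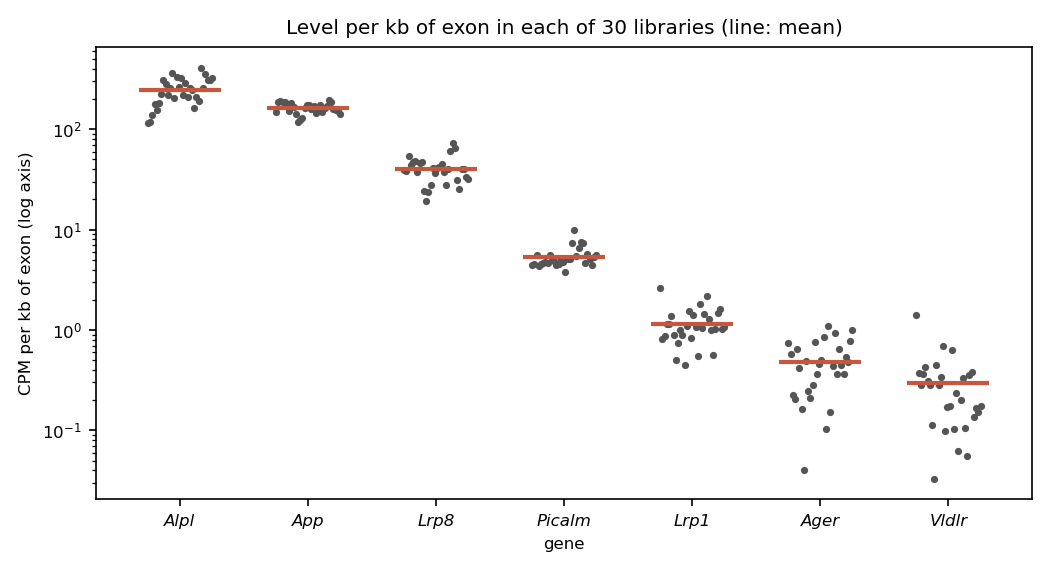
CPM per kilobase of exon (log axis) of the 7 genes, each point 1 of 30 libraries in a fixed order and each line the mean. The levels span from 247 for Alpl to 0.297 for Vldlr, and the points of Alpl and App and those of Ager and Vldlr overlap.

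Across the 7 members the slope on age, fitted with sex as a covariate and given as the log2 change over the 22 months, passed an adjusted p of 0.05 in 1 member (Alpl, higher) by edgeR's quasi-likelihood test with Benjamini-Hochberg adjustment over all genes tested. Of all genes tested 10.9% passed, a share called the background below, and the median slope of the members was 0.19 against 0.03 over all genes. Between 24 and 2 months 1 of 7 members was called, Alpl (background 8.35%). Between 18 and 2 months 3 were called, Alpl and Picalm higher and Vldlr lower (background 18.8%). With reads outside genes as a covariate the Alpl difference of 0.53 became 0.76 (adjusted p = 0.147) and that of Picalm went from 0.66 to 0.64 (adjusted p = 0.062), and neither passed. The Alpl difference was also lost with the astrocyte score (0.46, adjusted p = 0.0701) and the choroid plexus score (0.39, adjusted p = 0.189). Between 12 and 2 months the test called 1 member, Alpl (background 2.94%). These comparisons share the 2-month libraries. Between neighbouring ages, 6 against 2 months called 1 member, Alpl (background 8.76%), and 12 against 6 months called 0 (background 1.89%; 0 of 7 also at an unadjusted p under 0.05 and by DESeq2 and limma-voom). Going from 12 to 18 months called Picalm (background 13.2%), and 24 against 18 months called 2 members, Alpl higher and Picalm lower (background 1.26%). A departure from a straight line over the 5 ages was called for Picalm and Alpl, 2 of 7, against a background of 17.7%.

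**Figure D3:**
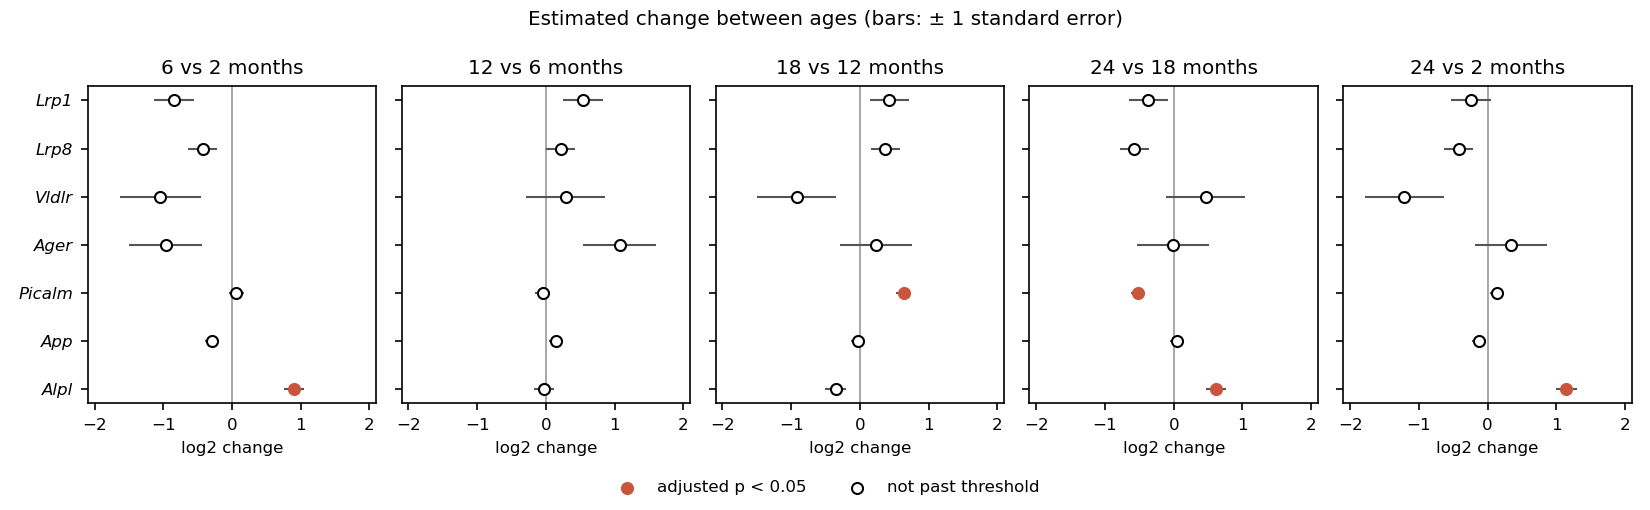
Fitted log2 change of each gene (horizontal axis, points with bars of ± 1 standard error) in 4 steps between neighbouring ages and between 24 and 2 months, filled red where the adjusted p was under 0.05. Alpl is filled at 6 against 2, 24 against 18 and 24 against 2 months, Picalm at 18 against 12 (0.64) and 24 against 18 months (-0.52), and no other gene is filled.

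The lipoprotein receptors came in very different amounts. Lrp1 (ENSMUSG00000040249.15, chr10:127538161-127621148 on the minus strand of GRCm38) encodes a large endocytic receptor that takes up apolipoprotein E, protease complexes and amyloid-beta. Its lowest, median and highest library were at 14.5, 20.4 and 46.8 CPM at 2 months, 8.01, 14.4 and 17.5 at 6 months and 9.74, 19.2 and 27.1 at 12 months. The 18-month values were 17.6, 24.1 and 38.2 CPM and at 24 months 9.90, 18.6 and 28.8. All 18-month libraries stood above all 6-month libraries, a gap that 6.07% of genes tested showed in one direction or the other, and the other pairs of ages overlapped. The slope of Lrp1 was 0.19 ± 0.28 (log2, SE; adjusted p = 0.723), and 6 against 2 months gave -0.84 ± 0.29 (adjusted p = 0.0647), both by edgeR's quasi-likelihood test; DESeq2 called the latter. The slope turned to -0.31 with the share of reads outside genes as a covariate, to -0.25 with the pericyte score, to -0.038 with the long-gene share and to -0.11 without the 6-month libraries.

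Lrp1 levels went with those of pericyte markers. The Pearson correlation of its log2 CPM with the mean log2 CPM of the 10 pericyte markers was 0.55 (permutation p = 0.00165, adjusted p = 0.0144 over 35 relations of the 7 members with 5 library measures). Spearman's rho was 0.56 (permutation p = 0.00162, adjusted p = 0.012). Pearson's r was 0.64 without the 2 libraries farthest from the median score and 0.58 for deviations from the age means. The pericyte sum was 608 ± 123 CPM at 2 months, 535 ± 147 at 18 months and 812 ± 251 at 24 months (SD, n = 6), and 4 of the 10 markers rose with age. In bulk RNA, more cells of a type and more RNA per cell cannot be told apart. The part of pericyte RNA in the Lrp1 values was not tested. Without the first male replicate, which was at 46.8 CPM, the 2-month mean of Lrp1 went from 23.6 to 19.0 CPM. The genes nearest to Lrp1 in pattern over the 30 libraries were Pdgfrb, a pericyte marker (r = 0.77), Slc7a11 (r = 0.76) and Pdgfra (r = 0.75), a description with no test. Pdgfra is on the list of oligodendrocyte precursor markers, with a mean of 14.9 CPM. The others of that list were Cspg5 at 14.3, Olig1 at 3.73, Olig2 at 0.685 and Sox10 at 0.654 CPM.

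Lrp8 (ENSMUSG00000028613.14, chr4:107802261-107876840, plus strand) encodes the apolipoprotein E receptor 2, which binds Reelin and selenoprotein P, and was per kb the highest of the 3 receptors. Its lowest, median and highest library were at 406, 482 and 570 CPM at 2 months, 205, 325 and 501 at 6 months and 290.3, 436 and 477 at 12 months. At 18 months they were 295, 532 and 764 CPM and at 24 months 269.7, 346 and 422. All pairs of ages overlapped, and the ages with the widest range were 6 and 18 months. The slope was -0.08 ± 0.21 (log2, SE), with an adjusted p of 0.852 by edgeR's quasi-likelihood test. With the long-gene share as a covariate it was -0.45 ± 0.09 (adjusted p = 0.00136), a fall that passed the threshold. The slope turned to 0.014 with the pericyte score as a covariate and to 0.13 without the 2-month libraries.

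At 6 and 18 months the libraries of Lrp8 divided by sex. At 6 months the 3 male libraries were at 397, 489 and 501 CPM and the 3 female libraries at 252, 205 and 251 CPM. At 18 months the order was the opposite, with males at 392, 295 and 421 CPM and females at 644, 764 and 690.0 CPM. The sexes did not overlap at either age, and the share of all genes with such a gap between the sexes was not counted. A test of sex within each age was added after these values were seen. It gave a male minus female difference of 0.97 ± 0.17 (log2, SE; adjusted p = 4.99e-04) at 6 months and of -0.92 ± 0.17 (adjusted p = 0.00795) at 18 months by edgeR's quasi-likelihood test. The background called was 11.3% of genes at 6 months and 1.19% at 18 months, and 0.0297%, 0.0475% and 0.0356% at 2, 12 and 24 months, where Lrp8 was not called. App was the other member called within 6 months (0.38 ± 0.12, higher in males, adjusted p = 0.0416), a call lost with the long-gene share in the model (0.22 ± 0.15, adjusted p = 0.647). The sex difference of Lrp8 at 6 months differed from that at 18 months (-1.89 ± 0.24, adjusted p = 6.40e-05, background 14%). It also differed from those at 2 months (background 2.94%), 12 months (9.48%) and 24 months (1.7%). The 18-month difference did not pass against 2, 12 or 24 months (adjusted p = 0.245, 0.506 and 0.502 by edgeR's quasi-likelihood test). The backgrounds of these 3 were 0.0237%, 0% and 0%.

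Lrp8 followed the long-gene share over the libraries. With 10514 exon bases against a median of 3935, Lrp8 is itself among the genes of that share, at a mean of 425 CPM. Pearson's r was 0.84 (permutation p = 1e-05, the smallest that 100000 permutations can give, adjusted p = 0.00035 over the 35 relations) and Spearman's rho 0.71 (permutation p = 3e-05, adjusted p = 0.00105). The r was 0.77 without the 2 farthest libraries and 0.89 for deviations from the age means. The 3 female 6-month libraries had long-gene shares of 44.2 to 47.6% against 51.7 to 56.0% in the 6-month males, and the 18-month females had 58.7 to 61.1% against 54.9 to 57.2% in the males. With that share in the model the male minus female difference was 0.35 ± 0.14 at 6 months (adjusted p = 0.311) and -0.60 ± 0.11 at 18 months (adjusted p = 0.0129). The summed CPM of the choroid plexus markers divided by sex at the same ages, in the direction opposite to Lrp8. This sum was 3517, 5365 and 1113 CPM in the 6-month females against 897, 395 and 393 CPM in the males, and 953, 159 and 468 CPM in the 18-month females against 1377, 1445 and 979 CPM in the males. By their mean log2 CPM (the score) the sexes stayed apart at 6 months but overlapped at 18 months. There the first female replicate was at 4.51 and the males were at 4.16 to 4.47. Lrp8 had an r of -0.39 with the choroid plexus score (permutation p = 0.0351, adjusted p = 0.092), a rho of -0.25 (permutation p = 0.179, adjusted p = 0.391), an r of -0.27 without the 2 farthest libraries and of -0.73 for deviations from the age means. Sex and whatever set these library properties within those ages cannot be told apart, and the part of choroid plexus RNA in the Lrp8 values was not tested. The genes nearest to Lrp8 in their pattern over 30 libraries were Arhgap29 (r = 0.91), Ablim1 (r = 0.90) and Adam10 (r = 0.90), a description with no test. Arhgap29 encodes a GTPase-activating protein, Ablim1 an actin-binding protein and Adam10 the main alpha-secretase.

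Vldlr (ENSMUSG00000024924.14, chr19:27216484-27254231, plus strand) encodes the very-low-density lipoprotein receptor, the other Reelin receptor of the family. Counts were 13 to 425 per library, and its lowest, median and highest library were at 2.83, 3.73 and 14.3 CPM at 2 months, 0.333, 2.86 and 4.47 at 6 months and 1.001, 1.73 and 6.95 at 12 months. The values at 18 months were 0.558, 1.53 and 3.31 CPM and at 24 months 1.37, 1.72 and 3.86. The ages overlapped, and the first male replicate at 2 months was far above the rest of its age. The slope was -1.17 ± 0.49 (log2, SE; adjusted p = 0.123 by edgeR's quasi-likelihood test), and 18 against 2 months gave -1.68 ± 0.59 (adjusted p = 0.0452). Without the first male replicate at 2 months the latter was -1.09 ± 0.57 (adjusted p = 0.188), and it was lost in 13 of the 30 fits that leave out 1 library. The 12 others were male replicate 2 and all 3 female replicates at 2 months, male replicate 1 at 6 months, the 3 males and female replicates 2 and 3 at 18 months, and female replicates 1 and 3 at 24 months.

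Choroid plexus markers moved with Vldlr. The sum of the 6 choroid plexus markers, led by Ttr, was 2873 ± 1404 CPM at 2 months and 897 ± 504 CPM at 18 months (SD, n = 6), and 4 of the 6 fell with age. Pearson's r of Vldlr with their mean log2 CPM was 0.65 (permutation p = 8e-05, adjusted p = 0.0014 over the 35 relations) and Spearman's rho 0.64 (permutation p = 1.8e-04, adjusted p = 0.00315). The r was 0.59 without the 2 farthest libraries and 0.51 for deviations from the age means. With that score as a covariate, 18 against 2 months was -0.39 ± 0.66 (adjusted p = 0.77 by edgeR's quasi-likelihood test). It was -0.77 (adjusted p = 0.406) with the long-gene share and -1.17 (adjusted p = 0.192) with the microglia score. It kept its size and missed the threshold with reads outside genes (-2.04, adjusted p = 0.444), the astrocyte score (-1.54, adjusted p = 0.112), upper-quartile factors (-1.66, adjusted p = 0.051) and no filter on low counts (-1.68, adjusted p = 0.0623). The slope became -0.26 with the choroid plexus score and -0.50 without the 2-month libraries. Vldlr was also related to the long-gene share (Pearson's r = -0.47, permutation p = 0.0102, adjusted p = 0.0447). Spearman's rho was -0.55 (permutation p = 0.00215, adjusted p = 0.0125), and r for deviations from the age means was -0.60. The parts of choroid plexus RNA and of the long-gene share in the Vldlr values were not tested. The 3 genes nearest to Vldlr in pattern were Gm29538 (r = 0.80), Prcd (r = 0.74) and Gpx8 (r = 0.74), a description with no test.

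**Figure D4:**
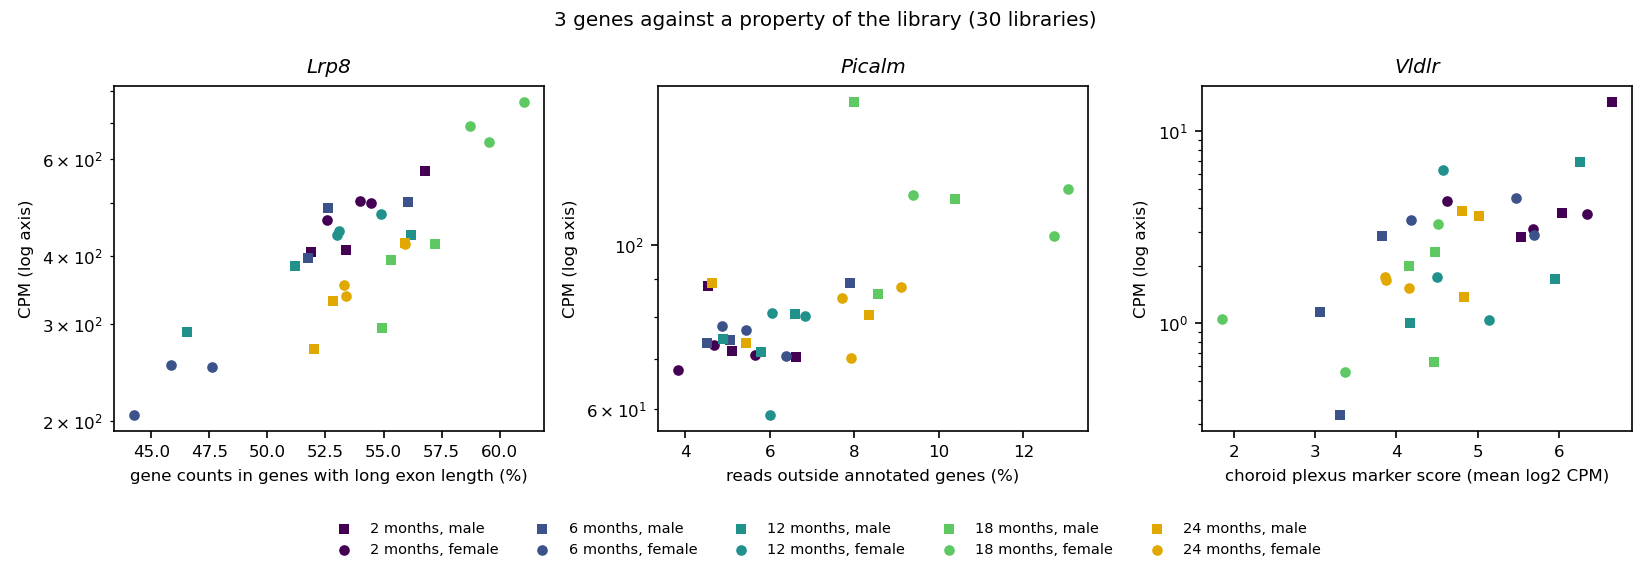
CPM (log axis) of Lrp8 against the long-gene share (%), of Picalm against the share of reads outside genes (%) and of Vldlr against the mean log2 CPM of 6 choroid plexus markers, with 1 point per library, age by colour and sex by symbol. Lrp8 follows its measure within and across ages (r = 0.84 and 0.89 within ages), Picalm only across ages (r = 0.65 and -0.01 within ages), and Vldlr in both (r = 0.65 and 0.51).

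The amyloid precursor gene App (ENSMUSG00000022892.10, chr16:84949685-85173766, minus strand) was abundant and varied little. Its lowest, median and highest library were at 1912, 2425 and 2501 CPM at 2 months, 1531, 1896 and 2361 at 6 months and 1667, 2178 and 2287 at 12 months. At 18 months they were 1888, 2098 and 2248 CPM and at 24 months 1828, 2046 and 2568. The ages overlapped in all pairs, and the SD over the 30 libraries was 12.6% of the mean. The slope was -0.04 ± 0.10 (log2, SE; adjusted p = 0.824) and 6 against 2 months -0.30 ± 0.10 (adjusted p = 0.0648) by edgeR's quasi-likelihood test. DESeq2 called the latter. The sign of the slope turned to 0.040 with the share of reads outside genes as a covariate and to 0.14 without the 2-month libraries. App was related to the long-gene share by Pearson's r (0.48, permutation p = 0.00775, adjusted p = 0.0447). Spearman's rho of 0.16 did not pass (permutation p = 0.404, adjusted p = 0.615). The r was 0.37 without the 2 farthest libraries and 0.52 for deviations from the age means. The part of that share in the App values was not tested. Among the genes nearest to App in pattern were Api5 and Tram1 (r = 0.90 and 0.89 over 30 libraries).

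Picalm (ENSMUSG00000039361.10, chr7:90130213-90213465, plus strand) encodes the phosphatidylinositol-binding adaptor that gathers clathrin at the membrane. Its lowest, median and highest library were at 67.6, 71.4 and 87.9 CPM at 2 months, 70.7, 75.5 and 88.8 at 6 months and 58.9, 77.4 and 80.9 at 12 months. At 18 months they were 85.9, 116 and 156 CPM, and at 24 months 70.4, 82.6 and 88.9. Of the 18-month libraries all 6 stood above all 12-month libraries, a gap that 4.23% of genes tested showed in one direction or the other. The third male replicate at 18 months, at 85.9 CPM, lay within the range of 2, 6 and 24 months.

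The step in Picalm from 12 to 18 months was 0.64 ± 0.11 (log2, SE; adjusted p = 3.21e-04) and the step from 18 to 24 months was -0.52 ± 0.11 (adjusted p = 0.0126) by edgeR's quasi-likelihood test. Between 24 and 2 months the difference was 0.14 ± 0.11 (adjusted p = 0.496), and the slope of 0.38 ± 0.14 did not pass (adjusted p = 0.0853). That slope was 0.053 with reads outside genes as a covariate, 0.11 without the 18-month libraries and 0.24 with the choroid plexus score. The 18-month libraries also had the highest share of reads outside genes, as given above. With that share in the model the steps kept their size, at 0.63 ± 0.15 and -0.51 ± 0.13, with adjusted p of 0.0859 and 0.405. The second step was also lost with the pericyte score (-0.48, adjusted p = 0.0633). Picalm and that share were related over all libraries (Pearson's r = 0.65, permutation p = 2.5e-04, adjusted p = 0.00292, and Spearman's rho = 0.52, permutation p = 0.00393, adjusted p = 0.0196). The r was 0.58 without the 2 farthest libraries, and within ages it was -0.01, so that the relation rests on differences between ages. The part of that library property in the Picalm values was not tested. Picalm was also related to the long-gene share (Pearson's r = 0.50, permutation p = 0.00513, adjusted p = 0.0359). Spearman's rho was 0.56 (permutation p = 0.00143, adjusted p = 0.012). Within ages this r was 0.11, and the part of the long-gene share was not tested either. Nearest in pattern were Fryl (r = 0.87), Shank3 (r = 0.82) and Lats1 (r = 0.80), of which Fryl and Lats1 rose with age (slopes of 0.80 and 0.75).

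Ager (ENSMUSG00000015452.14, chr17:34597862-34600936, plus strand) encodes RAGE, a receptor for glycated proteins, S100 proteins, HMGB1 and amyloid-beta. Counts were 3 to 85 per library, the lowest of the members. Its lowest, median and highest library were at 0.442, 1.06 and 1.58 CPM at 2 months, 0.086, 0.492 and 1.05 at 6 months and 0.222, 1.02 and 1.83 at 12 months. At 18 months they were 0.326, 1.15 and 2.34 CPM and at 24 months 0.771, 1.09 and 2.16. All pairs of ages overlapped. The slope of 0.75 ± 0.47 (log2, SE) did not pass (adjusted p = 0.321 by edgeR's quasi-likelihood test). It was 0.20 with reads outside genes as a covariate, 1.44 without the 2-month and 0.38 without the 6-month libraries, none of which passed. Ager was related to the share of reads outside genes (Pearson's r = 0.46, permutation p = 0.0102, adjusted p = 0.0447, and Spearman's rho = 0.56, permutation p = 0.00172, adjusted p = 0.012). The r was 0.53 without the 2 farthest libraries and 0.53 for deviations from the age means, and the part of that library property in the Ager values was not tested. Nearest in pattern were Dnase1l2, Gm23455 and Guf1 (r = 0.75, 0.72 and 0.71 over 30 libraries).

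Alpl (ENSMUSG00000028766.10, chr4:137741733-137796384, minus strand) was the member with the clearest course over age. Its lowest, median and highest library were at 468, 588 and 745 CPM at 2 months, 895, 1094 and 1471 at 6 months and 822, 1119.7 and 1332 at 12 months. Those of 18 months were 658, 851 and 1031 CPM and at 24 months 1033, 1276 and 1663. All 6-, 12- and 24-month libraries stood above all 2-month libraries, and all 24-month libraries stood above all 18-month libraries. Such gaps between 6 and 2 months were seen in 2.74% of genes tested, between 12 and 2 months in 2.12%, between 24 and 2 months in 6.5% and between 24 and 18 months in 2.42%.

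The largest step of Alpl was the first one, at 0.90 ± 0.15 (log2, SE; adjusted p = 3.28e-04) from 2 to 6 months by edgeR's quasi-likelihood test. From 6 to 12 months the change was -0.02 ± 0.15 (adjusted p = 0.968) and from 12 to 18 months -0.35 ± 0.15 (adjusted p = 0.119). The last step, from 18 to 24 months, was 0.62 ± 0.15 (adjusted p = 0.0339), and between the ends of the series Alpl rose by 1.15 ± 0.15, a 2.21-fold change (adjusted p = 6.56e-06). The slope of 0.66 ± 0.20 (adjusted p = 0.0287) rested on the youngest libraries: without the 2-month libraries it was 0.13 ± 0.21 (adjusted p = 0.75). It was also lost with the astrocyte score (0.57 ± 0.21, adjusted p = 0.0812) or the choroid plexus score (0.57 ± 0.20, adjusted p = 0.113) as a covariate, and without any of 8 libraries, the 6 of 2 months and male replicates 1 and 3 of 24 months (lowest 0.57, adjusted p up to 0.0779). The 24 against 2 and the 6 against 2 month calls were kept in every alternative fitted and without each library in turn (1.07 to 1.23 and 0.80 to 1.01). The 24 against 18 month call was lost without any female replicate of 18 or 24 months or male replicate 1 or 3 of 24 months (0.53 at the lowest, adjusted p up to 0.122) and with the share of reads outside genes as a covariate (0.49 ± 0.19, adjusted p = 0.713).

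The 9 astrocyte markers summed to 744 ± 295 CPM at 2 months and 443 ± 141 at 24 months, and 3 of the 9 fell with age. The 2-month mean includes the first male replicate at 1326 CPM, and the medians were 657 and 428 CPM. From 18 to 24 months, the last step in which Alpl was called, the mean astrocyte sum went from 434 to 443 CPM and the mean choroid plexus sum from 897 to 1395 CPM, and none of these markers was called. In the same step the mean pericyte sum went from 535 to 812 CPM, with Kcnj8 called higher. The mean smooth muscle sum went from 147 to 206 CPM, with no marker called. Pearson's r of Alpl with the astrocyte score was -0.38 (permutation p = 0.0394, adjusted p = 0.092 over the 35 relations) and with the choroid plexus score -0.41 (permutation p = 0.0239, adjusted p = 0.0699). Spearman's rho was -0.30 (permutation p = 0.105, adjusted p = 0.246) and -0.39 (permutation p = 0.0315, adjusted p = 0.0848). Without the 2 farthest libraries r was -0.32 and -0.42, and for deviations from the age means -0.14 and -0.25. The difference between 24 and 2 months was 1.09 with the astrocyte score, 1.05 with the choroid plexus score and 1.25 with the pericyte score as a covariate. The part of the amount of other cells in the Alpl slope was not tested. Nearest in pattern to Alpl were A4galt (r = 0.84), Lypd1 (r = 0.82) and Stra6 (r = 0.81), of which A4galt and Lypd1 rose with age (slopes of 0.61 and 1.67). A4galt encodes a glycosphingolipid galactosyltransferase and Stra6 the receptor for retinol-binding protein.

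Alpl has 2 annotated starts in the RefSeq table (GRCm38.p6), and the gene counts sum reads from both, so which start carried the rise is not known from these counts. The 250 bases before each are shown beside the window of Picalm, the member that stood out at 18 months, because the 3 differ in composition. Capitals mark GGGCGG or its reverse complement (a GC box) in the Alpl distal and Picalm windows and TATAAA or its reverse complement (a TATA box) in the Alpl proximal window, searched on both strands. All are written 5′ to 3′ on the strand of the gene.
Alpl distal, chr4:137796385-137796634, minus strand: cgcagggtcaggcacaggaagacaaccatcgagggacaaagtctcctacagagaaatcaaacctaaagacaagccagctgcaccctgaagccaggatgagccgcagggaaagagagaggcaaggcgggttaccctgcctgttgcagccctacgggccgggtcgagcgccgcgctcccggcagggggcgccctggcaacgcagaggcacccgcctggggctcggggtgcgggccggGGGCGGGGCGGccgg
Alpl proximal, chr4:137766476-137766725, minus strand: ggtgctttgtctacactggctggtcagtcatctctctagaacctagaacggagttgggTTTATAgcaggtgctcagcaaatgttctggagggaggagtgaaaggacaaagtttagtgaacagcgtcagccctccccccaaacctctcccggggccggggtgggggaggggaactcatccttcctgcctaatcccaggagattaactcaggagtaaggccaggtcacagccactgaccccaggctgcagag
Picalm, chr7:90129963-90130212, plus strand: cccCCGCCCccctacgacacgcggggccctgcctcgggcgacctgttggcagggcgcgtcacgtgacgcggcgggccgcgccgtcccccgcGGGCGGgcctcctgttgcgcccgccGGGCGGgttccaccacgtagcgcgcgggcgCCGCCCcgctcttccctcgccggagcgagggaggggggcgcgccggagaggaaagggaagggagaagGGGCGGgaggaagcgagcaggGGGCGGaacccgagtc
The distal Alpl window has 68.4% G and C, 20 CpG and 2 GC boxes that overlap in sequence. The proximal Alpl window has 56.0% G and C, 4 CpG, no GC box and 1 TATA box in reverse orientation. The Picalm window has 79.2% G and C, 39 CpG and 6 GC boxes. Over 32851 windows of the same length in the table, whose median was 52.4% G and C, GGGCGG was found in 32.7% and TATAAA in 12.4%. The core of the sterol element, CACCCCAC, was found in 2.58% of windows and in none of the 11 windows of the 7 members. These matches describe the letters in the windows and not binding.

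Averaged over the ages, sex gave no call among the members, and nor did a linear change of the sex difference with age. The male minus female difference over all ages was called for 0 of 7 members (background 0.101%), with sizes between -0.13 for Ager and 0.13 for Vldlr (log2). The slope differed between the sexes in 0 of 7 members and in 0% of genes tested by edgeR, DESeq2 or limma-voom, while 916 of the genes tested had an unadjusted p under 0.05 by edgeR and none was a member. For Alpl the slope was 0.93 ± 0.28 in the 15 male libraries and 0.41 ± 0.27 in the 15 female libraries, and their difference of 0.52 ± 0.40 did not pass (adjusted p = 0.884).

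The related genes of each pathway were read by the same slope test, and the background of 10.9% holds for each list. Of the 19 tested genes of the LDL receptor family and its chaperones 2 rose, 1 fell and 16 did not pass. Lrp3 (1.09 ± 0.24, adjusted p = 0.00284) and Lrp6 (0.56 ± 0.12, adjusted p = 0.00341), the Wnt co-receptor, rose, and Ldlrad4 (-0.76 ± 0.13, adjusted p = 1.88e-04), an inhibitor of TGF-beta signalling, fell. The calls of Lrp6 and Lrp3 were lost in 1 and 3 of 18 alternatives.

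Of the 12 tested lipoprotein and protease ligands 2 fell and none rose. Serpine2, a serpin whose complexes with proteases are cleared by LRP1, fell from 338 ± 48.7 to 109 ± 31.2 CPM between 2 and 24 months (slope -1.47 ± 0.18, adjusted p = 2.21e-06 by edgeR's quasi-likelihood test), and its call was kept in all 18 alternatives. Apoe, the main apolipoprotein of the brain, fell (slope -0.46 ± 0.14, adjusted p = 0.0262), a call lost in 7 of 18 alternatives, the astrocyte and choroid plexus scores among them. Clu, another apolipoprotein, had a slope of -0.43 ± 0.20 and did not pass (adjusted p = 0.162). The median slope of the list was -0.43 against 0.03 over all genes.

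Of the 12 tested genes of Reelin signalling 1 rose and 1 fell. Fyn, the kinase that phosphorylates the adaptor DAB1, went from 192 ± 24.5 to 119 ± 5.05 CPM (slope -0.60 ± 0.11, adjusted p = 6.79e-04 by edgeR's quasi-likelihood test), and Pik3r1, a regulatory subunit of PI3-kinase, rose (0.56 ± 0.14). Reln itself was not tested, at a mean of 0.144 CPM, and Dab1 was at 1.60 CPM. The adaptor gene Dab2 stood at 284 ± 27.6 CPM at 2 months and 185 ± 19.7 at 24 months, with a slope of -0.36 ± 0.15 that did not pass (adjusted p = 0.134).

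Of the 21 tested genes of the APP family and secretases 2 rose and 3 fell. Apbb1, which encodes an adaptor of the APP tail, rose (0.45 ± 0.09, adjusted p = 0.00136), as did Aph1b, a gamma-secretase subunit gene (0.72 ± 0.17). Itm2c (-0.36 ± 0.09, adjusted p = 0.00634) and Apba3 (-0.38 ± 0.10, adjusted p = 0.0128) were among those that fell, and their calls were lost in 4 and 5 of 18 alternatives. The beta-secretase gene Bace1 (0.35 ± 0.13, adjusted p = 0.0861), Adam10 (-0.16 ± 0.21) and the App paralog Aplp2 (0.09 ± 0.17) did not pass. Of the 10 tested amyloid degrading enzymes 2 fell, Thop1 (-0.48 ± 0.11) and Ece2 (-0.51 ± 0.15), and none rose. The calls of Thop1 and Ece2 were lost in 2 and 6 of 18 alternatives. Ece1, the endothelin-converting enzyme gene, at 552 CPM over the libraries, the insulin-degrading enzyme gene Ide (-0.17 ± 0.14) and the neprilysin gene Mme (0.70 ± 0.39) did not pass.

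Of the 13 tested genes of amyloid transport at the vessel wall 2 rose and 3 fell. The insulin receptor gene Insr (0.66 ± 0.17, adjusted p = 0.0124) and the efflux pump gene Abcc1 (0.83 ± 0.25) rose. Each of these calls was lost in 5 of 18 alternatives. Insr was also called higher from 12 to 18 months and lower from 18 to 24 months. The efflux pump gene Abcg2 (-0.38 ± 0.10, adjusted p = 0.008), Apoe and Fcgrt, which encodes the neonatal Fc receptor (-0.45 ± 0.10, adjusted p = 0.0023), fell. Abcb1a, which encodes P-glycoprotein, was at 755 ± 74.5 CPM at 2 months and 776 ± 60.9 at 24 months and did not pass (0.24 ± 0.12). Of the 36 genes of clathrin endocytosis and early sorting, the setting of Picalm, 3 rose (Hip1, Hip1r and Vamp2) and 3 fell (Vamp3, Snx17 and Sh3gl1). Their slopes were between -0.30 and 0.54, each call was lost in 5 to 9 of 18 alternatives, and the clathrin heavy chain gene Cltc (0.27 ± 0.19) did not pass.

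Of the 17 genes of RAGE ligands and signalling Diaph1, which encodes a formin that binds the RAGE tail, rose (0.54 ± 0.13, adjusted p = 0.0074), and Cdc42, Nfkb1 and S100a13 fell. The RAGE ligand genes Hmgb1 (-0.16 ± 0.08) and S100b (-0.62 ± 0.25) did not pass. Of the 13 tested genes of alkaline phosphatase, pyrophosphate and phosphate handling 3 rose and none fell: Alpl, the phosphate importer gene Slc20a1 (0.92 ± 0.19, adjusted p = 0.00135) and the phosphate exporter gene Xpr1 (0.51 ± 0.15, adjusted p = 0.0253). Slc20a2 (0.04 ± 0.15), Enpp1 (0.07 ± 0.32), whose product makes pyrophosphate, and Nt5e (0.04 ± 0.42) did not pass, and Xpr1 lost its call in 6 of 18 alternatives. Alpl itself is on this list, and the median slope of the list was 0.07 against 0.03 over all genes.

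Of the 17 other transcytosis receptors and caveolae genes 1 rose (Insr) and 4 fell. Mfsd2a, the lysolipid transporter whose loss is known to raise caveolar transcytosis, fell from 1075 ± 138 to 662 ± 39.9 CPM between 2 and 24 months (slope -0.63 ± 0.10, adjusted p = 5.67e-05 by edgeR's quasi-likelihood test) and kept its call in all 18 alternatives. Slc3a2, Cd320 and Fcgrt fell as well, while the transferrin receptor gene Tfrc (-0.23 ± 0.21) and Cav1 (-0.04 ± 0.12) did not pass. Of the 13 sterol and LXR regulators 1 fell, the sterol exporter gene Abcg1 (-0.80 ± 0.21, adjusted p = 0.0117), and none rose.

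**Figure D5:**
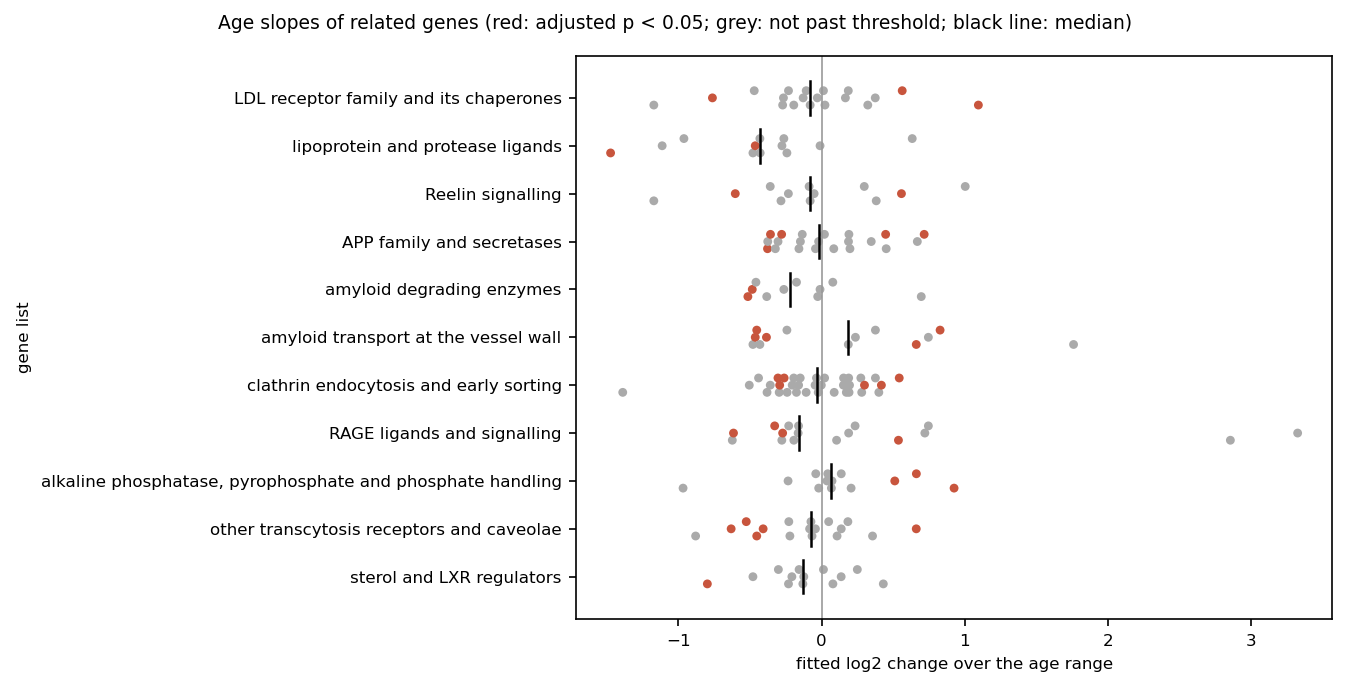
Fitted slope on age (log2 change over 22 months, horizontal axis) of each tested gene in the 11 related lists, spread vertically only for legibility, red where the adjusted p was under 0.05 and with the list median as a black line. In each list most points are grey, the red points lie on both sides of 0 in 7 lists, and the only lists with red points on 1 side are the ligands, the degrading enzymes and the sterol regulators (lower) and phosphate handling (higher).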

How the data were processed

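RNA of primary brain endothelial cells of untreated wild-type mice was measured in 30 libraries, grouped by the titles of the labels into 5 ages and 2 sexes. Per the labels' protocols, SMART-Seq v4 gave the cDNA and Nextera XT the libraries, 24 being sequenced as paired and 6 as single ends of 50 bases. The labels do not tell which 6, so instrument entered no model, and where it coincides with an age or sex the 2 cannot be told apart. Per the submitters' processing notes, FastQC 0.11.4, STAR 2.5.2b, MultiQC and HTSeq were used with the builds GRCm38 and mm10. The annotation release: not given in the sources used here. The authors deposited whole-number read counts per gene, not normalized. The column without strand was used, because the kit keeps none, so reads of antisense genes cannot be told apart, though no annotated gene shares exon bases with a member. The 4 lines that name no gene (2.51 to 6.26% unmapped, 8.64 to 13.3% at several places, 3.82 to 13.1% outside genes and 3.61 to 4.21% over several genes, of all reads counted) entered neither library sizes nor tests. PCR copies are counted.

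Symbols and exon lengths came from the GENCODE M21 annotation of GRCm38, which holds 48349 of the 48795 identifiers when version suffixes are ignored, and starts from RefSeq. All 7 members matched an annotated start (11 windows). In R 4.3.3 with edgeR 4.0.16, filterByExpr with ages as groups, a count of 10 and a total of 15 as minima kept 16844 genes, libraries were scaled by TMM, and a robust quasi-likelihood model was fitted to all 30 libraries, with p-values adjusted over all genes tested and a threshold of 0.05. SEs come from the F statistic. The slope took age in months and sex, the contrasts took age as a factor with sex, and the departure from a line tested 3 added polynomial terms jointly. The test of sex within an age used the 10 groups. No 2 libraries of 1 age, of either sex, agreed within sampling noise (chi-square per degree of freedom at least 16.0 over 75 pairs). Marker scores are means of log2 CPM with a prior count of 2.

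Alternatives were DESeq2 1.42.0, limma-voom (limma 3.58.1), other size factors, filters and counts, covariates, other sets of ages and leaving out each library. The covariates choroid plexus and microglia scores, the fits without the 4 libraries of lowest long-gene share or the 6-month libraries, the test of sex within an age and the 35 relations were chosen after seeing the data. The members and lists were chosen with earlier results of these data known. The text names the members; of each list at most 4 genes past the slope test by p, and a set list of reference genes; the 3 genes nearest to each member by Pearson correlation of log2 CPM; and the most abundant markers. A few genes that this rule names are not reported here. In the 4 lists with 5 or 6 calls more than 4 may be named, the ones beyond the rule having been chosen after their values were seen.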

Additional observations from a re-analysis of the deposited data

Results flagged for a closer look

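In 5 of 35 groups of 6 libraries of 1 age, 1 library lay apart by Dixon's test, where chance flags about 1 in 20 groups. At 2 months the first male replicate was high for Lrp1 (46.8 CPM, the next library at 24.3) and for Vldlr (14.3 CPM, the next at 4.35) and low for App (1912 CPM, the next at 2320.0). The mean at 2 months without it was 19.0 CPM for Lrp1, 3.55 CPM for Vldlr and 2422 CPM for App. This library also had the highest summed astrocyte (1326 CPM), microglia (1143 CPM) and neuron markers (21.1 CPM) of all 30 libraries, and their part in these values was not tested. The third male replicate at 2 months was high for Picalm (87.9 CPM, the next at 73.3). At 12 months the first male replicate was low for App (1667 CPM, the next at 2087), in the library with the highest summed oligodendrocyte (1903 CPM) and choroid plexus markers (6981 CPM).

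The male minus female difference of Lrp8 differed between ages by a test of the difference itself, added after the values were seen. On the log2 scale the difference at 6 months exceeded that at 2 months by 1.05 (adjusted p = 0.0146 by edgeR's quasi-likelihood test). The difference was lower by 1.26 at 12 months (value -1.26, adjusted p = 0.00193), by 1.89 at 18 months (value -1.89, adjusted p = 6.40e-05) and by 1.09 at 24 months (value -1.09, adjusted p = 0.0228) than at 6 months. The 18-month difference did not pass against 2, 12 or 24 months. The long-gene shares that move with the Lrp8 difference stand beside the Lrp8 values above.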

How the results depend on the processing

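No paired analysis was possible because the replicate numbers only follow the order of the deposited samples. Of 146 recounts of the members called (18 or fewer alternatives per comparison), 20 differed by more than 1.5 times. The slope call count was 1 and became 2 with the long-gene share as a covariate (Lrp8 added) and 0 with the astrocyte score, the choroid plexus score or without the 2-month libraries. For 24 against 2 months it became 2 with the long-gene share, the choroid plexus score and without the 4 libraries of lowest long-gene share (Lrp8 added each time). For 6 against 2 months it became 3 with DESeq2 (Lrp1 and App added) and the choroid plexus score (Lrp8 and App), and 2 with reads outside genes (Lrp1), long-gene share (Vldlr), pericyte and microglia scores (App). For 12 against 6 months it became 1 with the choroid plexus score (Lrp8). With reads outside genes it became 0 for 18 against 12 and for 24 against 18 months, and 1 for the latter with the pericyte score. The departure from a line was called for 4 members with DESeq2 (Lrp1 and Lrp8 added) and with the choroid plexus score (Lrp8 and App added), and for 1 without the 18-month libraries. The cause was not tested.

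The slope of Lrp1 (0.19) became -0.31 with reads outside genes, -0.038 with the long-gene share, -0.25 with the pericyte score and -0.11 without the 6-month libraries. That of Lrp8 (-0.08) became -0.45 with the long-gene share, 0.014 with the pericyte score and 0.13 without the 2-month libraries, and that of App (-0.04) became 0.040 with reads outside genes and 0.14 without the 2-month libraries. That of Alpl became 0.57 with the astrocyte or choroid plexus score and 0.13 without the 2-month libraries. Leaving out 1 library gave slope counts of 0 to 1, 6 against 2 month counts of 1 to 2, 24 against 18 month counts of 1 to 2 and departure counts of 2 to 3. Slopes then ranged from 0.57 to 0.74 for Alpl, 0.30 to 0.43 for Picalm (called without male 24-month replicate 1, adjusted p = 0.0452), 0.11 to 0.50 for Lrp1, -0.15 to -0.01 for Lrp8, -1.36 to -0.65 for Vldlr, 0.61 to 0.95 for Ager and -0.09 to -0.01 for App. Per kb of the longest transcript the levels were 395 for Alpl, 259 for App, 64.2 for Lrp8 and 10.3 for Picalm, in the same order. Over all genes, calls for 18 against 12 months went from 2224 to 654 with the choroid plexus score and 18 with reads outside genes, and for the slope from 1843 to 782 and 402. DESeq2 called 672 genes in place of 318 for 12 against 6 months, 696 in place of 212 for 24 against 18 months and 51 in place of 17 for sex. Of 612 refits of list genes 128 lost the call and none turned. Leaving out 1 library ended the calls of 10 of the 34 list genes called, among them Snx17 in 10 fits, Hip1r in 5, Sh3gl1 in 4, Abcc1 and Vamp3 in 3 each, S100a13 in 2, and Apoe, Ece2 and Vamp2 in 1 each (without male 2-month replicate 2). What change the depth of Ager (3 to 85 counts) could show was not tested. The slopes of Picalm, Vldlr and Ager, none called, moved by more than 1.5 times in the settings given beside them above.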
